A study of Mus musculus with 48 samples.

Results

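Carbamoyl phosphate synthetase 1 (Cps1), arginase 1 (Arg1) and argininosuccinate synthase 1 (Ass1) are enzymes of the urea cycle, and this account describes the H3K27ac peaks at their loci in developing mouse liver, heart and forebrain. The peaks were chosen by position: every peak that overlapped the mm9 window of 1 of the 3 genes by at least 1 bp was taken. The windows were chromosome 1 from 67.12 to 67.33 Mb for Cps1, chromosome 10 from 24.6 to 24.68 Mb for Arg1 and chromosome 2 from 31.29 to 31.41 Mb for Ass1. They held 101 of the 620207 peaks in the 24 H3K27ac lists, of which 28 were at Cps1, 12 at Arg1 and 61 at Ass1. The 7 liver lists supplied 67 of them, the 8 heart lists 17 and the 9 forebrain lists 17.

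The study profiled H3K27ac, the acetylation of histone H3 at lysine 27 that marks active enhancers and promoters, by chromatin immunoprecipitation and sequencing in CD-1 mice. Liver, heart and forebrain were dissected at 3 prenatal stages (E11.5, E14.5, E17.5) and 4 postnatal ones (P0, P7, P21, P56), and apart from P56 a library holds tissue of more than 1 mouse or embryo. Each H3K27ac library has an input library of sonicated DNA from before the immunoprecipitation. Heart E11.5, forebrain E11.5 and forebrain P56 had 2 replicates and all other groups 1, so most values have no replicate error, and the labels leave unsaid if a pair of replicates shares animals. Headers inside the lists write P0 as p1 and P21 as p20. In whole tissue, fewer cells of a type and less acetylation per cell cannot be told apart, and the tissue labels were not checked against marker genes because no mm9 annotation was used here.

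The urea cycle turns ammonia, which is toxic, into urea and runs in full in hepatocytes. Cps1 is a mitochondrial enzyme that makes carbamoyl phosphate from ammonia and bicarbonate and catalyses the first committed step. Ass1 joins citrulline and aspartate in the cytosol, and outside the liver it also serves to make arginine. Arg1 closes the cycle by splitting arginine into urea and ornithine. Much of the fetal liver consists of blood-forming cells, and hepatocytes make up more of the organ after birth.

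Of the 3 genes, 1 matched an entry in the RefSeq promoter table used here, Ass1; Cps1 and Arg1 did not. The Ass1 promoter is shown because the best ranked peaks of the set lay in its window. It covers 300 bases around the gene start, at chr2:31470020-31470319 on the plus strand of GRCm38.p6. It was not placed among the peaks, whose coordinates are mm9. Capitals mark GGGCGG, the GC box, which occurred 1 time on the plus strand and 0 times on the minus strand.

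Ass1 promoter: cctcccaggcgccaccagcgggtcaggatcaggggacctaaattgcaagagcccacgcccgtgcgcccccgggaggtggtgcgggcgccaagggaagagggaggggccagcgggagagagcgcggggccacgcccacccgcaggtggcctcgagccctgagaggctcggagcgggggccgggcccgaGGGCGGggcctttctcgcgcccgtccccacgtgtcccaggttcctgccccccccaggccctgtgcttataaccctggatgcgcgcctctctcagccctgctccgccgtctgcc

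The sequence was 74% G and C, against a median of 52.7% over the 32851 promoters of the table. GGGCGG was present on either strand in 35.7% of them. No other motif searched on both strands had a match in these bases. They were the TATA box (TATAAA, in 13.6% of all promoters), the CCAAT box (CCAAT, in 37.4%) and a cAMP response element (TGACGTCA, in 1.79%). Also searched were a C/EBP palindrome (TTGCGCAA, in 0.183%), its looser form (TTNNGNAA, in 40.7%), which includes it, and an HNF4 motif (CAAAGTCCA, in 0.475%).

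The H3K27ac libraries held 4108135 (liver P0) to 33394166 (forebrain E14.5) uniquely mapped reads, and their lists 7376 (heart P21) to 39133 peaks (heart P0). Library names fall in 2 series, IO and LPAN. All liver libraries and the heart libraries from E14.5 to P21 are LPAN, while the forebrain lists used in the main tests are IO. In those tests liver and forebrain cannot be told apart from the series. Forebrain P56 replicate 2 is LPAN. It held no peak at Cps1 or Arg1 and peaks over 4.11 kb at Ass1, against 53.4, 33.1 and 35.8 kb in liver P56. The list labelled heart P21 input stood apart. It held 23762 peaks, where liver P0 input held 865 and the other 22 input lists 17 to 42. Liver P7, P21 and P56 peaks overlapped 92.0%, 88.5% and 89.1% of its peaks, and the earlier liver lists 37.0% (E14.5) to 70.7% (E17.5). Heart H3K27ac lists apart from P21 overlapped 55.9% to 71.8%, forebrain lists 30.4% to 55.4% and the heart P21 H3K27ac list 4.97%. The header of the heart P21 H3K27ac list includes the word withInput, and the part of that input in the shortness of the list was not tested. The 3 windows had 0 peaks in the heart P21 H3K27ac list, so tissue comparisons are given with and without it.

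**Figure D1:**
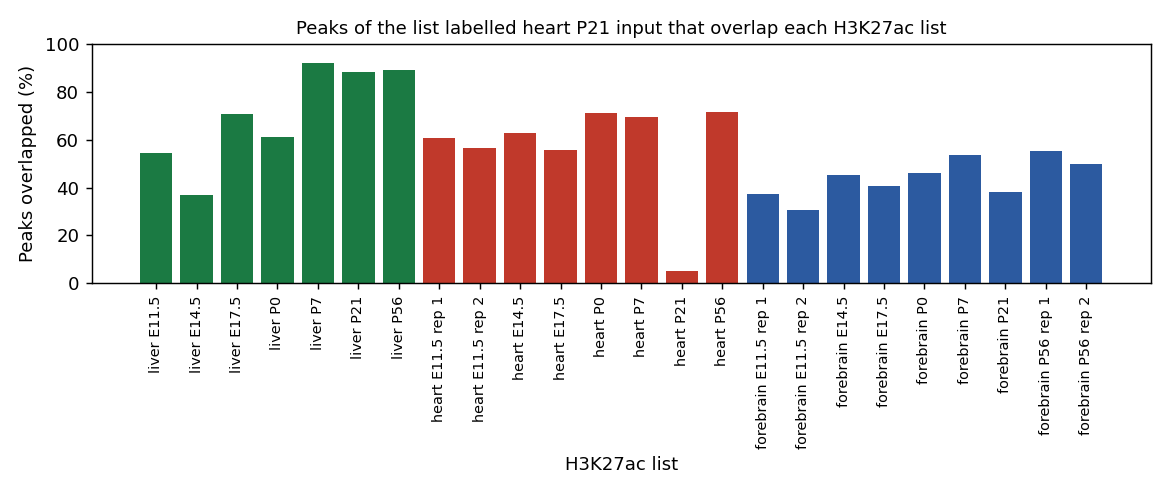
Percent of the 23762 peaks of the list labelled heart P21 input (vertical axis) that overlap each of the 24 H3K27ac lists by at least 1 bp, with liver in green, heart in red and forebrain in blue. Liver P7, P21 and P56 stand highest at 92.0%, 88.5% and 89.1%, and heart P21 lowest at 4.97%.

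The first question was when and in which tissue the loci were marked. Cps1 and Arg1 carried peaks in liver at all 5 stages from E17.5 to P56 and had none in liver at E11.5 or E14.5. Outside liver, Arg1 had no peak in any of the 17 lists and Cps1 had 1 peak, at heart P56. Ass1 differed in that it was marked in 14 of the 17 heart and forebrain lists as well as in 6 of the 7 liver lists, all but E14.5. How often other windows of that length hold a peak was not counted. The liver lists at E11.5 and E14.5 were not empty, with 20269 and 12474 peaks.

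**Figure D2:**
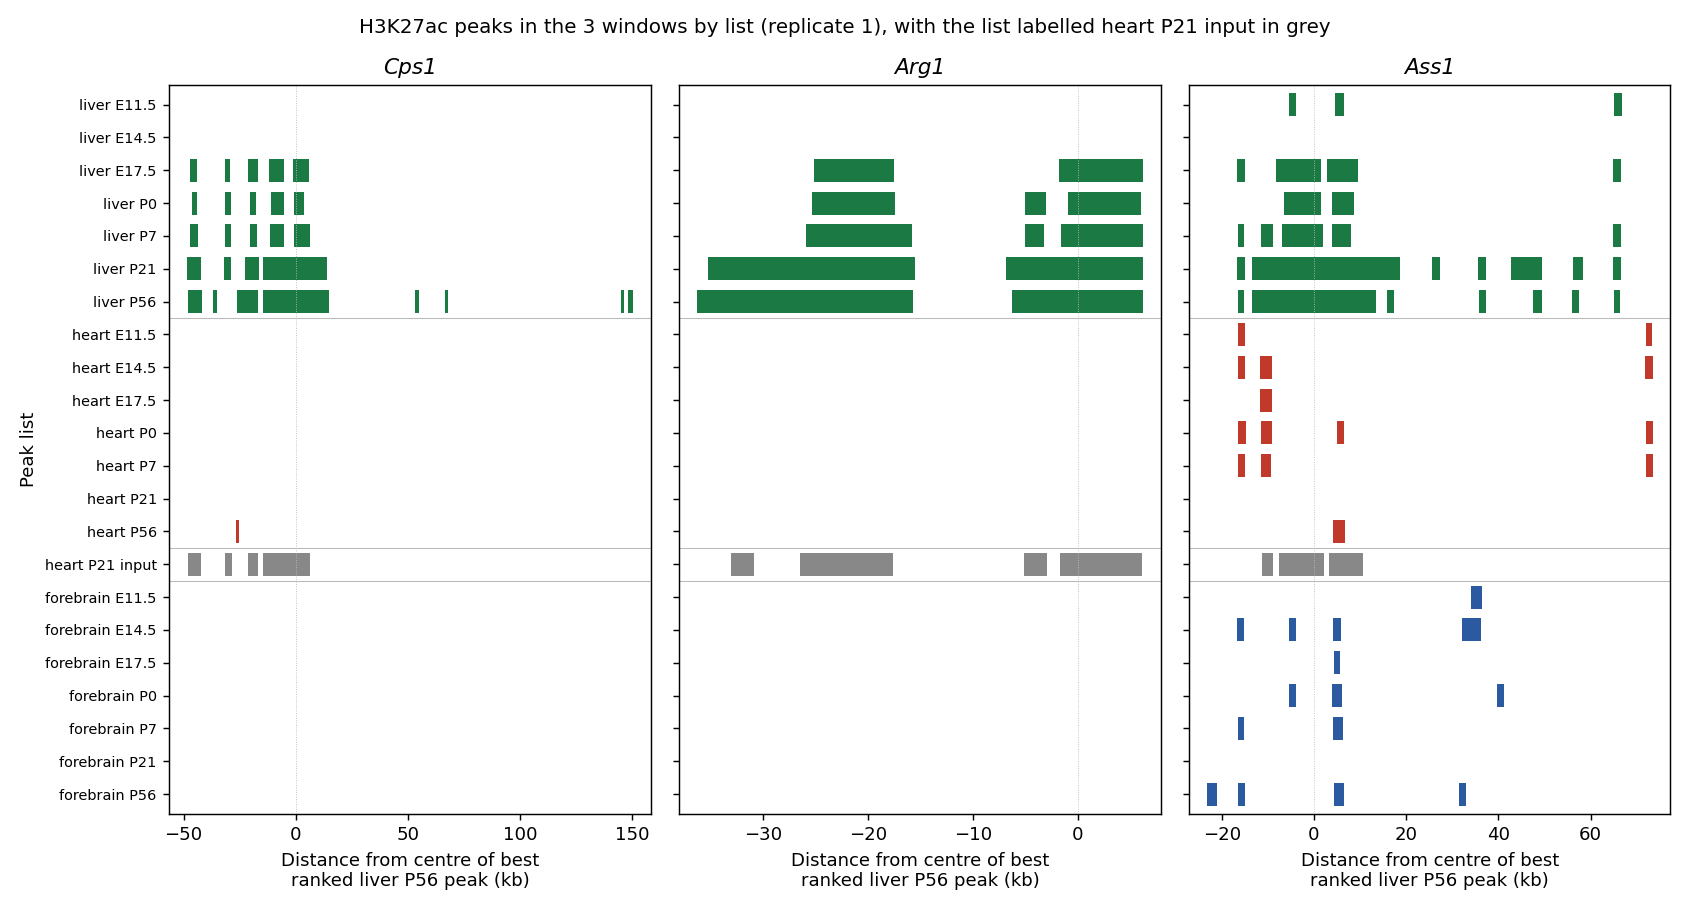
Peaks of the 3 windows in the 21 lists of replicate 1 and in the list labelled heart P21 input (grey), drawn to scale as distance in kb from the centre of the best ranked liver P56 peak of each window. Liver peaks at Cps1 and Arg1 appear at E17.5 and are widest at P21 and P56, and the grey peaks lie where liver peaks lie.

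Cps1, the entry enzyme, was covered by liver peaks over 0 kb at E11.5, 0 kb at E14.5, 24.4 kb at E17.5, 17.6 kb at P0, 22.9 kb at P7, 44.0 kb at P21 and 53.4 kb at P56. Covered length is the number of bases of the window under peaks. The values fall in 3 levels, none before E17.5, a middle level to P7, and a higher one at P21 and P56. The only other coverage was 1.39 kb at heart P56, from a peak at rank 35362 of 36251.

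From E17.5 to P7 the Cps1 window held 5 separate liver peaks in each list. At P7 they lay at 67122612 to 67125963, 67137914 to 67140640, 67149092 to 67152262, 67158042 to 67164457 and 67168876 to 67176141 on chromosome 1. All 5 overlapped no peak of the 14 heart and forebrain lists. The share of all liver P7 peaks without such an overlap was not counted. Of all merged elements with a liver peak, described below, 30.7% had no peak in those lists. At P21 a single peak from 67155059 to 67183537 replaced the last pair, 28.5 kb wide where the pair summed to 14.2 kb at E17.5, 10.3 kb at P0 and 13.7 kb at P7. At P56 it measured 29.4 kb, the second of the 5 peaks was absent and a peak lay at 67132812 to 67134314. A further 4 small peaks appeared downstream between 67222794 and 67319982, each 1459 to 2181 bp wide. In the GRCm38.p6 gene order Cps1 lies between Lancl1 and Erbb4, and these outlying peaks were not assigned to a gene.

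Arg1, which releases urea, had liver coverage of 0 kb at E11.5, 0 kb at E14.5, 15.6 kb at E17.5, 16.9 kb at P0, 19.8 kb at P7, 32.8 kb at P21 and 33.1 kb at P56. The peaks formed 2 blocks. The first, from 24630494 to 24651306 on chromosome 10, was 7.66 kb wide at E17.5, 7.92 kb at P0, 10.2 kb at P7, 19.7 kb at P21 and 20.6 kb at P56. The second, from 24659959 to 24673050, had a main peak of 7.96 kb at E17.5, 6.98 kb at P0, 7.83 kb at P7, 13.1 kb at P21 and 12.5 kb at P56, which was the better ranked block at each of these stages except P0. Its end moved by little, from 24672906 to 24673050 over the 5 lists, while its start lay between 24665059 and 24665929 up to P7 and at 24659959 and 24660576 at P21 and P56. A small further peak, 1.99 kb at P0 and 1.80 kb at P7, lay in the stretch that the wider P21 and P56 peaks took in. Arg1 lies between Med23 and Akap7 in the GRCm38.p6 order.

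Ass1 had liver coverage of 5.29 kb at E11.5, 0 kb at E14.5, 20.2 kb at E17.5, 12.9 kb at P0, 18.7 kb at P7, 48.0 kb at P21 and 35.8 kb at P56. In heart, replicate 1 covered 2.65 kb at E11.5, 6.01 kb at E14.5, 2.50 kb at E17.5, 6.77 kb at P0, 5.002 kb at P7, 0 kb at P21 and 2.48 kb at P56. In forebrain it covered 2.35 kb, 8.95 kb, 1.41 kb, 5.10 kb, 3.78 kb, 0 kb and 7.57 kb at the same stages. Liver was the highest at 6 of 7 stages, all but E14.5, where it had no peak. Replicate 2 covered 3.26 kb at heart E11.5, 0 kb at forebrain E11.5 and 4.11 kb at forebrain P56. The replicates lay furthest apart at forebrain P56 (7.57 and 4.11 kb), where they are of different series of library names. The lead of liver over both other tissues was larger than that gap at each stage from E17.5 on.

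**Figure D3:**
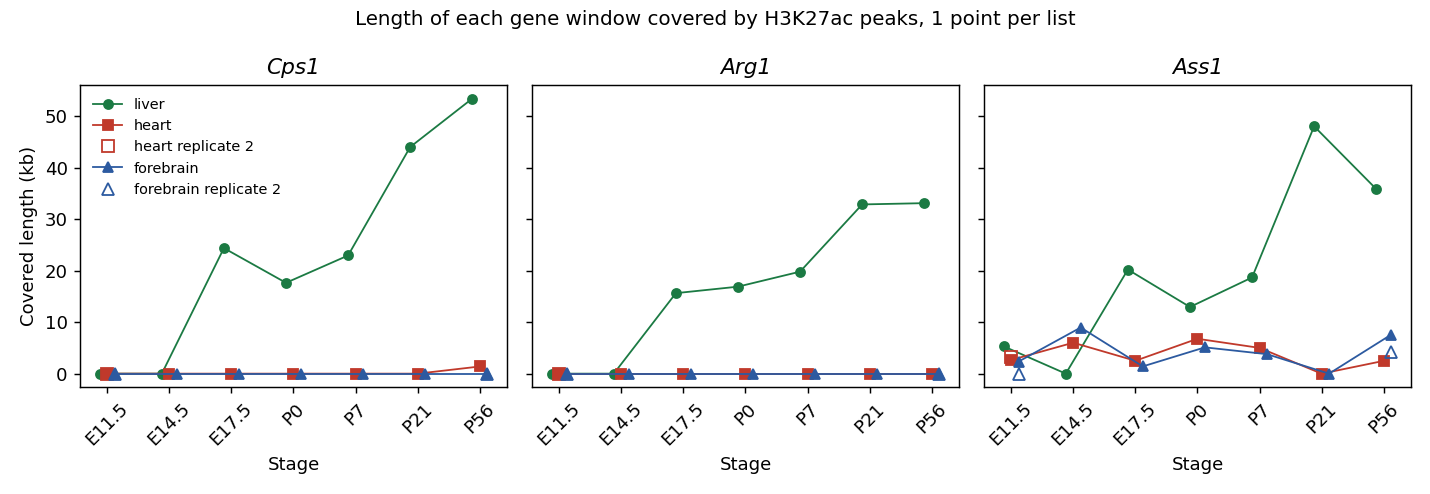
Length in kb of each gene window covered by H3K27ac peaks (vertical axis) by stage, with filled symbols for replicate 1 and open symbols for replicate 2. Liver reaches 44.0 and 53.4 kb at Cps1, 32.8 and 33.1 kb at Arg1 and 48.0 and 35.8 kb at Ass1 at P21 and P56, while heart and forebrain stay at or below 8.95 kb.

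The Ass1 window held a wide liver peak at P21 and P56 whose parts were differently shared. At P21 it ran from 31307097 to 31339144 on chromosome 2, 32.0 kb, and at P56 from 31307097 to 31333836, 26.7 kb. At P7 the same stretch held 3 peaks. That from 31313582 to 31322386 was met by peaks of 6 liver, 0 heart and 2 forebrain lists. That from 31324437 to 31328498 was met by 6 liver, 2 heart and 5 forebrain lists, and that from 31309059 to 31311562 by 3 liver, 4 heart and 0 forebrain lists. A distal region from 31385236 to 31387227 had a peak in 5 liver lists, E11.5 among them, and in no other list. Beyond it, the region from 31392214 to 31393907 had peaks at 4 heart stages and in no liver or forebrain list. Forebrain peaks were most often in the stretch shared with liver near 31324437, at 5 of 7 stages, and the best of them stood at percentile 68.6 at P0. No heart or forebrain peak of the window was wider than 4086 bp (forebrain E14.5), while the widest liver peak was 32048 bp. At P21 and P56 liver also had peaks within 31363290 to 31369857, of 6568 bp at P21 and 1887 bp at P56, and within 31376476 to 31378871, of 2280 and 1481 bp, that no other list shared. Ass1 lies between Hmcn2 and Fubp3 in the GRCm38.p6 order, and no peak was assigned to a gene.

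Liver coverage was compared with that of heart and forebrain at the same stages, with 1 list for each tissue and stage. Liver covered a mean of 23.2 ± 20.2 kb of the Cps1 window (SD over 7 stages), against 0.0992 ± 0.371 kb in heart and forebrain (SD over 14 lists). The difference of 23.1 kb had p = 0.00412 when tissue labels were permuted within stages (exact, two-sided). For Arg1 the means were 16.9 ± 13.5 kb in liver and 0 kb in the others (exact permutation p = 0.00412). These are the smallest p that the values allow, since all lists were at 0 at E11.5 and E14.5. For Ass1 they were 20.1 ± 16.8 kb in liver and 3.90 ± 2.76 kb in the others, a difference of 16.2 kb (exact permutation p = 0.00457). The heart P21 list was also left out, an alternative added after the data were seen. This could not change the differences of 23.1, 16.9 and 16.2 kb, since forebrain P21 also held no peak in the windows. The exact permutation p were then 0.00617, 0.00617 and 0.00686. These p-values describe 21 libraries, are not adjusted, and treat the stages as independent.

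Within 1 series of library names, liver exceeded heart by 21.8 kb at Cps1, 17.0 kb at Arg1 and 15.9 kb at Ass1 over the 5 stages from E14.5 to P21 (exact permutation p = 0.125 for each). With 5 stages the test cannot give a p below 0.0625, and E14.5 held no liver peak. At equal list lengths of 7376 peaks, that of the heart P21 list, the Cps1 difference was 6.46 kb and no longer passed (exact permutation p = 0.333). Liver P56 was the only list with Cps1 peaks among its best 7376, so a smaller p was not possible. The best Cps1 peak at liver P21 lay just outside, at rank 7571. With peaks trimmed to 1 kb the Ass1 difference was 1.93 kb (exact permutation p = 0.0850).

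The authors' rank of each peak within its list gave a further reading of the loci. What the rank is based on is not given in the sources used here. It is given as a percentile, 100 for the best peak of a list and 0 for no peak. At Cps1 the best liver peak stood at percentile 61.4 at E17.5, 49.7 at P0, 75.4 at P7, 72.1 at P21 and 91.3 at P56. At Arg1 it stood at 70.0, 69.1, 85.2, 96.3 and 97.9 at the same stages. At Ass1 it stood at 26.7 at E11.5 and at 79.7, 74.4, 91.6, 99.0 and 99.7 from E17.5 to P56. In rank terms the best Ass1 peak was number 277 of 27179 at P21 and number 84 of 30611 at P56, the best Arg1 peak number 1003 and 655, and the best Cps1 peak number 7571 and 2670. The order Ass1, Arg1, Cps1 held at each of the 5 stages from E17.5.

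**Figure D4:**
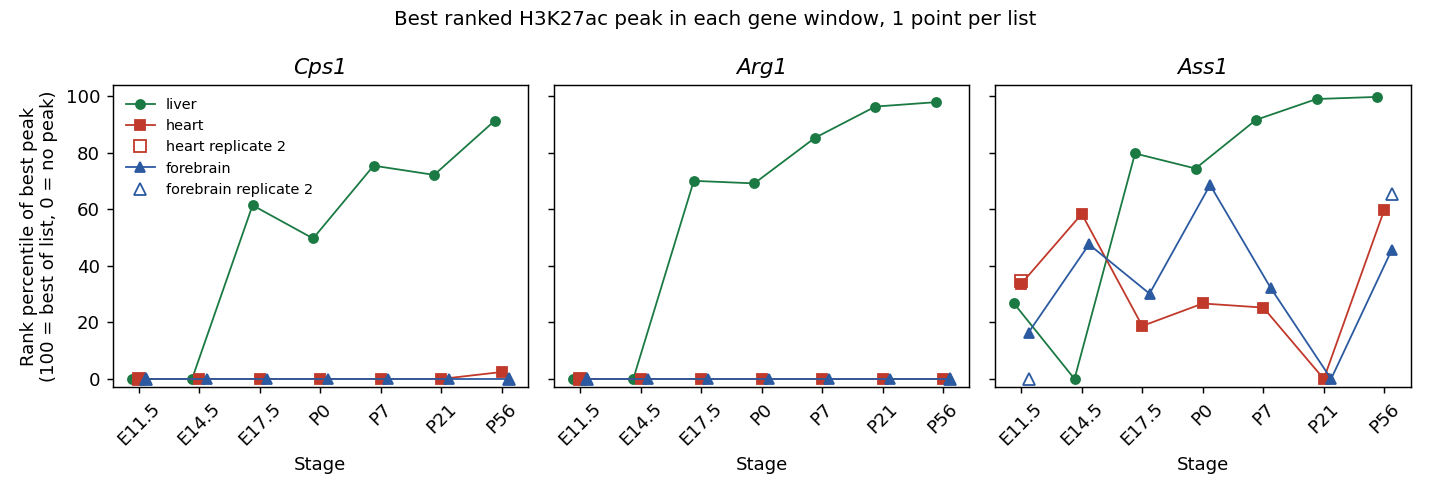
Percentile within its list of the best ranked peak in each window (vertical axis, 100 for the best peak, 0 for no peak) by stage, with open symbols for replicate 2. In liver the percentile at P56 is 91.3 for Cps1, 97.9 for Arg1 and 99.7 for Ass1, and Ass1 alone has values well above 0 in heart and forebrain.

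The mean percentile was 49.99 ± 36.4 in liver and 0.175 ± 0.656 in heart and forebrain for Cps1 (exact permutation p = 0.00412). It was 59.8 ± 42.4 in liver and 0 in the others for Arg1 (exact permutation p = 0.00412). For Ass1 it was 67.3 ± 38.8 in liver and 33.1 ± 21.1 in the others, a difference of 34.2 points (exact permutation p = 0.0261). In heart and forebrain the best Ass1 peak ranged from 0 to 68.6, and at E11.5 and E14.5 liver did not stand above both tissues. The Ass1 call was lost without E17.5 (exact permutation p = 0.0782), without P7 (p = 0.0837, exact), without P21 (p = 0.0947, exact) and without P56 (p = 0.0617, exact). It stood at p = 0.0473 (exact) with only the heart P21 list left out. In windows widened by 50 kb on each side, the rank differences shrank to 8.26 points at Cps1 (exact permutation p = 0.531) and 5.37 points at Ass1 (exact permutation p = 0.721). At Arg1 it shrank to 22.3 points and still passed (exact permutation p = 0.00183). At equal list lengths the difference was 9.12 points at Cps1 (exact permutation p = 0.333, the smallest possible with only P56 above 0). It was 32.3 points at Arg1 (exact permutation p = 0.00412).

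Postnatal liver was then set against prenatal liver. Coverage averaged 34.5 ± 17.0 kb in the 4 postnatal and 8.12 ± 14.1 kb in the 3 prenatal lists at Cps1, a difference of 26.4 kb that did not pass (two-sided exact permutation p = 0.171). At Arg1 it averaged 25.6 ± 8.53 kb in postnatal and 5.21 ± 9.02 kb in prenatal lists, and all 4 postnatal values lay above all 3 prenatal ones (exact permutation p = 0.0571). At Ass1 it averaged 28.9 ± 16.0 kb in postnatal and 8.50 ± 10.5 kb in prenatal lists (exact permutation p = 0.171). The percentile differences of 51.7 points at Cps1, 63.8 at Arg1 and 55.7 at Ass1 did not pass either (exact permutation p = 0.0857, 0.0571 and 0.0571). In the widened windows they were 21.8 points at Cps1, 12.4 at Arg1 and 24.2 at Ass1. At equal list lengths the Cps1 differences were 11.3 kb and 16.0 points. The smallest p of this test is 0.0286. At Cps1 and Ass1 the E17.5 list, although prenatal, covered more than the P0 and P7 lists. Where coverage was divided by the share of the genome that all peaks of the list covered, Arg1 gave exact permutation p = 0.0286, and so did its percentile without peaks overlapping the own input list.

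At all 3 loci the P21 and P56 coverage lay above every earlier liver value. Peaks of 20 kb or more made up 1.43% of the list at E17.5, 0.251% at P0, 0.425% at P7, 1.36% at P21 and 1.405% at P56. The widest peaks at E17.5 were 7.28 kb at Cps1, 7.96 kb at Arg1 and 9.81 kb at Ass1. Those widths stood at percentiles 87.3, 89.3 and 92.9 of the E17.5 list. The widest peaks stood at 89.4, 94.8 and 95.1 at P0 and at 91.8, 96.4 and 94.9 at P7. They stood at 99.5, 98.6 and 99.7 at P21 and at 99.5, 98.7 and 99.4 at P56. The liver libraries held 16839827 uniquely mapped reads at E17.5, 4108135 at P0, 9848823 at P7, 21429854 at P21, the deepest of them, and 11777249 at P56. The part of depth and of the breadth of each list in these widths was not tested. Relative coverage, the share of the window covered divided by the share of the genome (counted up to the last peak of each chromosome) under all peaks of that list, was 2.80, 3.26, 2.27, 4.44 and 5.14 at Cps1 from E17.5 to P56. At Arg1 it was 4.72, 8.19, 5.15, 8.71 and 8.36, where the P0 value lay close to the later ones, and at Ass1 it was 4.07, 4.19, 3.24, 8.49 and 6.03. Over the 17 heart and forebrain lists the Ass1 value averaged 0.890, from 0 to 2.38, where 1 is the level of the whole list.

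The regions were also placed against all marked regions of the series. Peaks that overlapped over the 24 lists were merged into 86181 elements, of which 41817 had a peak in at least 1 liver list. The windows held 21 elements, 9 at Cps1, 2 at Arg1 and 10 at Ass1, and 18 of them had a liver peak. Of these 18, 14 had no peak in the 14 heart and forebrain lists, against 30.7% of all elements with a liver peak. Elements marked in all 5 liver lists from E17.5 and in neither earlier one numbered 5 of 18, against 4.62% in the background; 3 were at Cps1, 2 at Arg1 and 0 at Ass1. Of the 5, 4 also lacked a peak in all 14 other lists, against 1.3% in the background. In the one-sided exact test of restriction to liver with stage as a stratum, 7 of 18 had an unadjusted p of at most 0.05, against 15.4% of the background. After Benjamini-Hochberg adjustment over all elements with a liver peak, that test called 0 of 18 and 0 of 41817 elements, and 6423 had an unadjusted p of at most 0.05. The lowest adjusted p was 0.113, in the windows and over all elements. Unadjusted, the stratified exact test cannot give a p below 0.000457, or below 0.00412 for an element marked at only 5 stages. The lowest in the windows was 0.00412, so 0 adjusted calls cannot show a lack of restriction to liver. All these counts are over elements kept because they had a liver peak, a choice that favours liver, and so they are a description. Fisher's exact test without the stratum called 5 of 18 window elements and 1524 elements in all, 3.64% of the background, when adjusted over those elements. Adjusted over all 85254 elements of the 21 lists, an alternative added after the data were seen, it called 0 window elements and 395 in all, 0.463% of that background. The stratified test called 0 over those elements too.

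The elements with the lowest p in Fisher's exact test (one-sided exact p = 0.00103 for each) were 67121281 to 67127622 and 67154906 to 67184338 at Cps1, both Arg1 blocks, and 31385236 to 31387227 at Ass1. Each had a peak in 5 liver lists and in 0 of 14 others. Their Benjamini-Hochberg adjusted p was 0.0283 over elements with a liver peak and 0.0577 over all elements, so the call depended on that filter. The broad Ass1 element from 31307097 to 31339144 was marked in 6 liver, 5 heart and 5 forebrain lists and did not pass (exact p = 0.407 with the stage stratum). It passed that test unadjusted at equal list lengths (exact p = 0.00412). It also passed unadjusted where a list counted only if its peaks together covered at least 50% of an element (exact p = 0.0370). At equal list lengths 3 of the window elements had an unadjusted p of at most 0.05. Over all elements 2205 did, and their share of the elements tested at that length was not computed. The 3 Cps1 elements with peaks in 5 liver lists no longer passed (exact p = 0.333 for each). That is the smallest p possible for an element marked only at P56, as these then were. Under that 50% rule, the broad elements at Cps1 (67143037 and 67154906) and the first Arg1 block did not pass (exact p = 0.111 for each). Up to P7 the peaks of no list together covered that much of them.

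Elsewhere in the genome, the elements with the most similar rank percentile over the 21 lists were sought for the best ranked element of each window. For Cps1 they were chr10:111042938-111049501, chr4:102478610-102486956 and chr4:80592090-80599359, with Pearson r of 0.9996, 0.9994 and 0.9992. For Arg1 they were chr1:95017882-95044132, chr10:95691325-95698864 and chr12:82282103-82294370, with r of 0.9998, 0.9993 and 0.9990. For Ass1 they were chr13:46112910-46120715, chr12:104562744-104571330 and chr11:23039370-23042613, with r of 0.899, 0.895 and 0.875. Between the windows, r was 0.994 for Cps1 with Arg1, 0.818 for Cps1 with Ass1 and 0.822 for Arg1 with Ass1. These values describe the lists, which share libraries, and the high values at Cps1 and Arg1 rest largely on lists where both elements are at 0.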

How the data were processed

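For every library the authors deposited a peak list, and for the series a table with counts of filtered reads, uniquely mapped reads and peaks. Per the submitters' processing notes, BWA, MACS 1.4 and mm9 were used, with no roles given. Per the file headers, the H3K27ac track names include withInput and pe05. A line of a list holds coordinates and the rank set by the authors, and the depth behind a peak is unknown. Coordinates are printed 1-based in mm9.

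Groups came from sample titles. Rows of the table were matched to samples by name, with P1 read as P0 and P20 as P21 as in the headers of the lists. Per window and list, covered bases and the percentile of the best ranked peak were computed. Main tests used 21 lists, replicate 1 where a group had 2, and permuted tissue labels within stages (2187 relabellings) or split the liver stages (35 splits), two-sided, on absolute differences. There were 6 tests between tissues and 6 between stages. Elements were merged over all 24 lists, and their tests and background used the 21 lists. The test code was tested on simulated data. Alternatives are given in the closing section. The members, windows and lists were chosen with earlier results of these data known; the named elements are those with a peak in the most liver lists, up to 6 a window, and the 3 most similar elements are by Pearson r. Regions described beyond these were chosen after their values were seen. Other urea cycle genes and cell type markers were not analysed here, since no mm9 annotation was used, and no coordinates were converted between builds. Software was pandas 2.3.3 and numpy 2.4.6 for tables, scipy 1.17.1 for tests and matplotlib 3.10.9 for plots, under Python 3.11.15.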

Additional observations from a re-analysis of the deposited data

Results flagged for a closer look

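In the list labelled heart P21 input, 4 peaks fell in the Cps1 window, 4 in the Arg1 window and 3 in the Ass1 window. Tissue comparisons used this list only in the alternative without peaks overlapping the own input list. All 11 peaks overlapped a liver H3K27ac peak, 2 a heart and 2 a forebrain one. The windows themselves held 67 liver, 17 heart and 17 forebrain H3K27ac peaks. How many of all 23762 peaks overlapped any list of a tissue was not counted. The widest, from 67155222 to 67176155 on chromosome 1 at Cps1, measured 20.9 kb and held rank 1867 of 23762, and the best ranked, from 31312922 to 31322593 on chromosome 2 at Ass1, held rank 295. Apart from liver P56, no other input list had a peak in the windows. The origin of this library was not tested. The liver P56 input list had 1 peak in the Cps1 window, from 67174492 to 67176037, inside the broad liver peak. Without peaks overlapping the own input list, the Cps1 coverage difference was 18.9 kb between tissues, against 23.1 kb. Between liver stages it was 19.0 kb, against 26.4 kb.

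Among the 7 heart lists, heart P56 stood apart at Cps1, with 1.39 kb covered and a percentile of 2.46 where the other 6 heart lists were at 0. Chance flags about 1 in 20 groups, and 24 groups were checked, but that rate does not hold for a group at 0 apart from 1 list. Both values come from the same peak. Heart P56 was also the deepest heart H3K27ac library, with 25929812 uniquely mapped reads, and is of the IO series. The part of depth or series was not tested. The postnatal minus prenatal difference was not shown to differ between liver and heart or forebrain in any of 12 exact permutation tests, whose smallest p was 0.0571. These tests were added after the data were seen, and with 35 splits they cannot give a p below 0.0286. At Arg1, and at Cps1 against forebrain, the other tissue was at 0 at all stages. There the tests repeat those of liver alone and cannot decide if tissues differ.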

How the results depend on the processing

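No alternative reversed a difference in coverage or percentile between tissues or between liver stages. Among single elements that did not pass, the liver share of Ass1 31303740 fell below that of the others without E17.5 and without P21, and that of Ass1 31351941 without P21 (-0.0833 each). Leaving out 1 stage gave differences between liver and the other tissues of 18.1 to 26.9 kb at Cps1, 14.2 to 19.7 kb at Arg1 and 10.9 to 20.2 kb at Ass1, and of 43.1 to 58.1, 53.5 to 69.8 and 23.5 to 48.8 percentile points. Between postnatal and prenatal liver it gave 20.1 to 34.5, 17.8 to 25.6 and 13.98 to 26.2 kb, and 41.4 to 72.1, 52.1 to 87.1 and 38.0 to 77.8 points. Set against heart alone, the difference no longer passed at Cps1 (23.0 kb and 49.6 points), at Arg1 (16.9 kb and 59.8 points) or in the Ass1 percentile (35.5 points). Set against forebrain alone none of the 6 differences passed, at 23.2 kb and 49.99 points, 16.9 kb and 59.8 points, and 16.0 kb and 33.0 points. With 7 stages and 1 other tissue the smallest p is 0.0156, or 0.0625 where E11.5 and E14.5 are at 0 in both. Liver against heart within 1 series of library names, which cannot pass, gave 21.8 kb and 51.7 points at Cps1, 17.0 kb and 64.1 points at Arg1, and 15.9 kb and 43.2 points at Ass1. At equal list lengths Cps1 gave 6.46 kb and 9.12 points. Trimmed peaks gave 1.93 kb at Ass1. Widened windows gave 8.26 points at Cps1 and 5.37 at Ass1; the cause was not tested. Between liver stages, Arg1 passed with relative coverage (a difference of 6.03) and, without peaks overlapping the own input list, in its percentile (64.1 points). The count of elements restricted to liver was 0 adjusted and 6423 unadjusted. It was 1524 adjusted with Fisher's exact test, 395 with that test adjusted over all 85254 elements, 2205 unadjusted at equal list lengths, and 4245 to 6431 unadjusted without 1 stage, lowest without P7; adjusted it stayed 0 to 0 without any 1 stage. No paired analysis was possible because the liver groups have 1 list each and share fewer than 2 replicate numbers with heart or forebrain; this concerns replicate numbers, and the tests between tissues compared them within each stage. Peak lists record presence only, so a region without a peak may still hold acetylation below the authors' threshold, and a shallow library such as liver P0 may miss weak peaks.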
